A study of Homo sapiens with 4 samples.

Results

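The genes described here are noncoding host genes of small nucleolar RNAs (snoRNAs): GAS5, SNHG1, SNHG3, SNHG5, SNHG6, SNHG8, SNHG12, SNHG15, SNHG16 and ZFAS1. They were listed by name, with earlier results of these data already known. Of the 10, 8 had a row matched by current Ensembl identifier among the 51714 Ensembl genes of the count files. For SNHG1 and SNHG8 no row matched and retired identifiers could not be traced, so they are not analysed here. ZFAS1 was matched by its Ensembl identifier, ENSG00000177410.

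RNA came from Raji cells, an established human line from an Epstein-Barr-virus-positive Burkitt lymphoma. From a vector the cells made an HA-tagged RPB1 that resists α-amanitin. RPB1 is the largest subunit of RNA polymerase II, and it was either wild-type (WT, 2 libraries) or had the R1810A change of an arginine to alanine in its C-terminal domain (R1810A, 2 libraries). Both groups were polyclonal batches selected with G418 and then with α-amanitin for 10 days, so that the resistant subunit replaced the endogenous one. The question was whether losing this methylation site changes gene expression. Whether the 2 libraries of each kind were separate cultures is not stated, and the p-values cover no more than the spread between those libraries, which can be technical.

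Host genes of this kind carry snoRNAs in their introns, while the spliced exons code for no conserved protein. After splicing the intron is opened and trimmed to the mature snoRNA, and the exonic RNA is typically exported, bound by ribosomes and removed by nonsense-mediated decay. Many such hosts start with a 5′ terminal oligopyrimidine tract, the promoter and leader type of ribosomal protein genes. Box C/D snoRNAs guide ribose methylation of ribosomal RNA. Box H/ACA snoRNAs guide pseudouridylation, apart from a few such as U17, the RNA of the SNORA73 genes, which acts in ribosomal RNA cleavage. GAS5 was first found as a transcript that accumulates in growth-arrested cells.

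Of the analysed hosts, 4 contained a snoRNA gene with a row matched by its current Ensembl identifier. These 6 snoRNAs, of 35 known for the 10 hosts, are printed because the host and snoRNA values below are set against each other. The other snoRNAs had no matched row, and retired identifiers could not be traced, so they may be counted under an older identifier. Capitals mark the match to the C box (NTGATGA) nearest the 5′ end and the match to the D box (CTGA) nearest the 3′ end, each within its own side of the midpoint, or, in SNORA73B, the ACA box near the 3′ end, all searched on the RNA strand only. The SNORD12 genes share the run cagatcgac, which begins at base 36 in each of the 3. The sequences are those of GENCODE release 29 and the positions are on GRCh38, not on the hg19 build used for counting. SNORD99 lies in SNHG12 at chr1:28578749-28578822 (minus strand), SNORA73B in SNHG3 at chr1:28508559-28508762 (plus), and SNORD1B in SNHG16 at chr17:76561109-76561192 (plus). In ZFAS1 (all plus), SNORD12C lies at chr20:49278940-49279028, SNORD12B at chr20:49280319-49280409 and SNORD12 at chr20:49280683-49280772.
SNORD99: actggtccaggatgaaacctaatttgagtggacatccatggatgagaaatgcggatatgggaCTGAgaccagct
SNORD12: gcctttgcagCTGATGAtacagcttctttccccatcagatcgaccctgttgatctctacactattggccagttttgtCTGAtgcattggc
SNORD12B: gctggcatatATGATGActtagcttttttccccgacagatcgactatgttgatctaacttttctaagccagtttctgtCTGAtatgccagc
SNORD12C: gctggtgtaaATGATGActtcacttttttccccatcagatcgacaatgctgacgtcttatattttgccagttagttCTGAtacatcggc
SNORD1B: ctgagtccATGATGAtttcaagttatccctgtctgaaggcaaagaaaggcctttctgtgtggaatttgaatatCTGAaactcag
SNORA73B: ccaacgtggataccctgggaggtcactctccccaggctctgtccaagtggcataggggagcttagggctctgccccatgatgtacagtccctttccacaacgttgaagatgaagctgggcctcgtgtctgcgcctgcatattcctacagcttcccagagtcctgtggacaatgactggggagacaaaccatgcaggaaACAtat
Of 288 SNORD sequences in the same set, 71.2% held this C box and 94.4% this D box under the same search. Of 149 SNORA sequences, 89.9% held ACA starting in the last 8 bases. SNORD99 had no match to the C box letters before its midpoint.

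Summed gene counts ran from 2081636 to 2991959 per library. B cell markers (7 genes, among them MS4A1, CD79A and PAX5) summed to between 5973 and 7710 CPM (read counts relative to library size), erythroid markers were at 0, and T cell markers had at most 1.34 CPM. Fibroblast markers stood at 1.29 to 1.34 CPM in WT and 2.83 to 6.25 CPM in R1810A, all from COL1A1, with the other 3 of 4 at 0. These 2 ranges did not overlap, but they rest on 3 and 4 COL1A1 reads in WT against 6 and 13 in R1810A. Both R1810A libraries exceeded both WT libraries in 19.8% of the genes tested below. Reads of this 1 gene do not show that fibroblasts were present, and a part of such cells in the results was not tested. CSF1R, set down as a myeloid marker, had 445 and 394 reads in WT against 508 and 324 in R1810A, while CD14 had at most 1 read in a library. Their part in the results was not tested. In the edgeR test of 10674 genes, R1810A was higher than WT in 37 (0.347%) and lower in 1 (0.00937%), at a threshold of 0.05 on the adjusted p.

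GAS5 was the one host of the 8 that passed the threshold, and 0 passed in the lower direction, where none had an unadjusted p under 0.05 either. DESeq2 called 1 host higher and 0 lower, and limma-voom 0 and 0. The share of all genes called higher was 0.347%, and GAS5 had already been seen to pass in earlier results of these data. With 7 of 8 log2 fold changes above 0, the hosts had a median of 0.31, against a median of 0.00 over all genes tested, of which 49.4% were above 0. If host counts also held the reads of the matched snoRNAs, subtracting these would leave 4 of 7 tested hosts above 0. The R1810A libraries both exceeded the higher WT library in 6 of the 8 hosts, as they did in 19.8% of all genes.

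**Figure D1:**
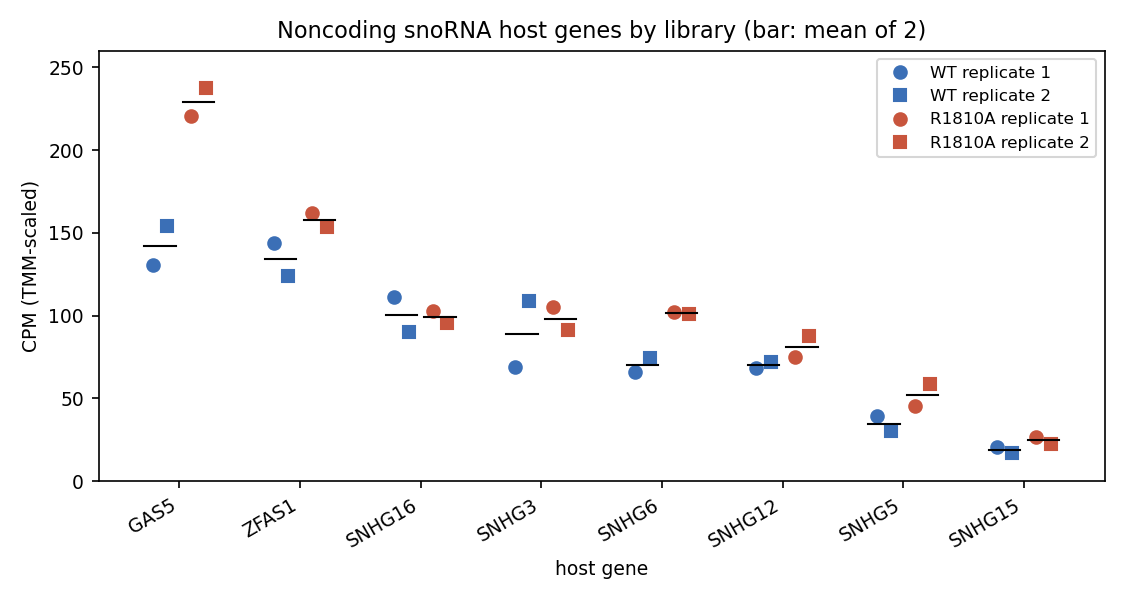
Scaled counts (CPM, vertical axis, linear) of the 8 hosts in each library, with circles for replicate 1, squares for replicate 2, WT in blue, R1810A in red and a bar at the mean of 2 libraries. GAS5 stands at 130 and 154 CPM in WT and at 220 and 238 CPM in R1810A, while the groups overlap in SNHG3 and SNHG16.

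GAS5 (ENSG00000234741, chr1:173863900-173868882 on GRCh38, minus strand) had 300 and 466 reads in WT against 463 and 498 in R1810A. With TMM scaling these were, in CPM, 130 and 154 in WT against 220 and 238 in R1810A. The groups did not overlap, and the lower R1810A library stood 1.43 times above the higher WT library, whereas libraries within a group differed by 1.18 times in WT and 1.08 times in R1810A. GAS5 rose by 1.61-fold in R1810A (log2 fold change 0.68, SE 0.12, 95% interval 0.42 to 0.95, adjusted p = 0.046). The adjusted p lay between 0.0071 and 0.118 over 15 alternatives, 6 of which ended the call. Without WT replicate 2, R1810A replicate 1 or R1810A replicate 2 it was 0.074, 0.060 and 0.118, with limma-voom 0.067 and with deposited total reads as library size 0.082. Leaving small RNA genes out of the scaling alone gave an adjusted p of 0.044. Leaving them out of the test too, an alternative chosen after seeing the data, gave a log2 fold change of 0.69 and an adjusted p of 0.116, with 3 genes called in all. In bulk RNA, more RNA per cell and more cells with the RNA cannot be told apart, here and for the other genes.

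**Figure D2:**
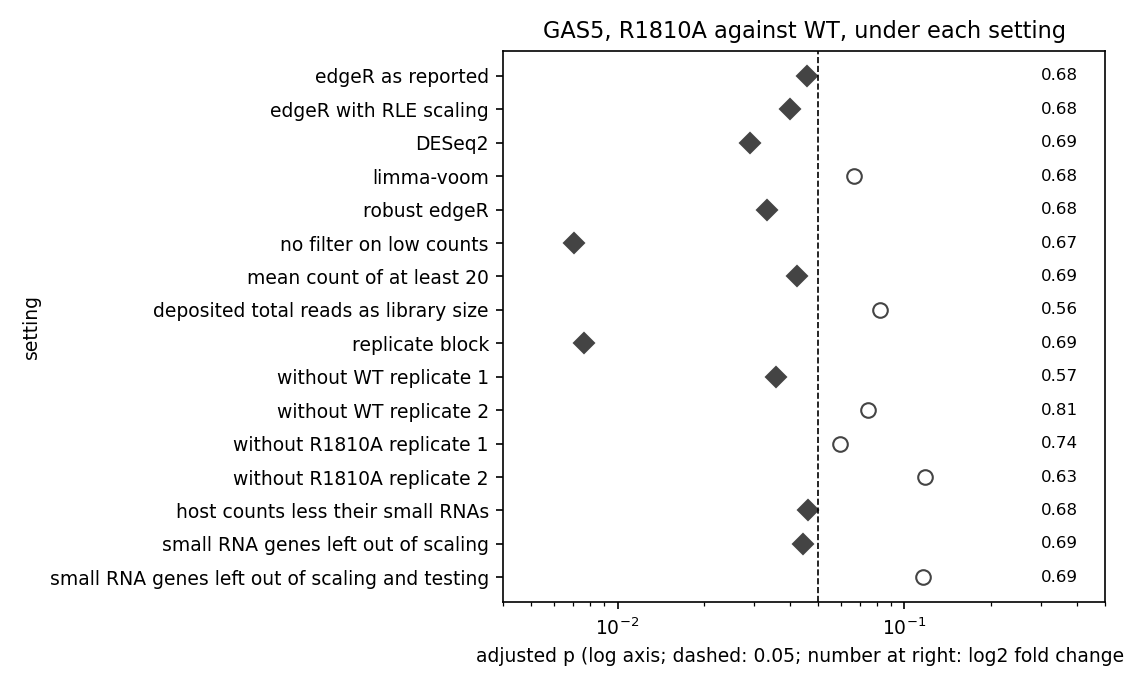
Adjusted p of GAS5 (horizontal log axis) under each setting, with filled diamonds under the dashed line at 0.05, open circles above it, and the log2 fold change in numbers at the right. The log2 fold change stays between 0.56 and 0.81 while the adjusted p runs from 0.0071 to 0.118.

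The GAS5 count covers more than the spliced RNA. Its deposited length of 3631 bases equals the union of all its GENCODE exons, retained-intron transcripts included, and without those transcripts the union is 1614 bases. All bases of 8 of its 10 snoRNAs lie inside this union (SNORD44, SNORD47, SNORD74, SNORD76, SNORD77, SNORD79, SNORD80 and SNORD81, by RefSeq positions on GRCh38), and SNORD75 and SNORD78 lie outside it. The snoRNAs make up 16.2% of the deposited length, and none of the 10 had a matched row of its own. Reads of those 8 snoRNAs, if counted there, therefore cannot be told apart from reads of the host RNA in the GAS5 count. Whether they were counted there is not known. ZBTB37, the protein-coding gene that starts beside GAS5 on the other strand, had 30 and 50 reads in WT against 42 and 29 in R1810A. ZBTB37 stood at 0.18 on the log2 scale (SE 0.28, adjusted p = 0.899).

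SNHG5 and SNHG6 had the next largest fold changes and did not pass. SNHG5, the host of the SNORD50 snoRNAs, had 90 and 91 reads in WT against 95 and 123 in R1810A, or 39.1 and 30.1 CPM against 45.2 and 58.7 CPM. The groups did not overlap, but the gap between them was smaller than the difference within each. Its log2 fold change was 0.60 (95% interval 0.16 to 1.04, unadjusted p = 0.012, adjusted p = 0.425). SNHG6 (ENSG00000245910), the host of SNORD87, had 151 and 226 reads against 215 and 211, or 65.6 and 74.6 CPM in WT and 102 and 101 CPM in R1810A. Here the lower R1810A library stood 1.35 times above the higher WT library. Its log2 fold change was 0.53 (95% interval 0.23 to 0.82, unadjusted p = 0.0023, adjusted p = 0.207). GAS5, SNHG5 and SNHG6 were the 3 of 8 hosts higher at an unadjusted p under 0.05, a mark reached in that direction by 4.94% of all genes. All bases of SNORD50A, SNORD50B and SNORD87 lie inside annotated exons of SNHG5 and SNHG6, and none of these snoRNAs had a matched row. Whether the counts of SNHG5 and SNHG6 hold reads of these snoRNAs is not known.

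The other 5 hosts had 95% intervals that include 0. ZFAS1, the host of the SNORD12 snoRNAs, had 331 and 376 reads in WT against 340 and 321 in R1810A, or 144 and 124 CPM against 162 and 153 CPM. The log2 fold change was 0.24 (interval -0.03 to 0.51, adjusted p = 0.654). SNHG12, which holds H/ACA snoRNAs and the C/D snoRNA SNORD99, had 157 and 218 reads in WT against 157 and 184 in R1810A. Its log2 fold change was 0.21 (interval -0.10 to 0.52), and the lower R1810A library was only 1.04 times above the higher WT library. SNHG15 was the host with fewest reads, 48 and 51 against 56 and 47, and its interval ran from -0.13 to 0.91. The count of SNHG15 rests on a deposited length of 297 bases, against 3647 in the GENCODE annotation. It therefore describes a small piece of the gene.

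SNHG3 and SNHG16 were the hosts in which the groups overlapped. SNHG3, the host of the H/ACA snoRNAs SNORA73A and SNORA73B, had 158 and 329 reads in WT against 221 and 191 in R1810A. The WT libraries, at 68.7 and 109 CPM, enclosed both R1810A libraries at 105 and 91.2 CPM, and the log2 fold change was 0.13 (interval -0.29 to 0.55). It turned to -0.15 without WT replicate 1. SNHG3 lies within the span of RCC1 on the same strand, and their exons share 242 bases, so some reads may belong to either; RCC1 had a log2 fold change of -0.14 (SE 0.12). SNHG16, the host of the SNORD1 snoRNAs, had 256 and 272 reads against 216 and 200, or 111 and 89.8 CPM in WT and 103 and 95.5 CPM in R1810A. Its log2 fold change was -0.01 (interval -0.33 to 0.30). It turned to 0.14 when WT replicate 1 was left out and to 0.04 when R1810A replicate 2 was.

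Per length, the first 3 hosts kept their order in every library and the other 5 did not. By deposited RPKM (reads relative to gene length and total reads), ZFAS1 was first in every library, at 73.6 and 63.4 in WT and 77.1 and 70.9 in R1810A. SNHG15 was second, at 39.4 and 31.8 against 46.9 and 38.3, on the short deposited length given above. GAS5 was the third in every library, at 20.2 and 23.7 RPKM in WT and 31.7 and 33.2 RPKM in R1810A. The other 5 lay between 9.43 and 18.8 RPKM over all libraries. Their order differed from library to library: SNHG3 was the fourth of 8 in WT replicate 2 and the last in WT replicate 1 and R1810A replicate 2. SNHG6 was the fifth in both WT libraries and the fourth in both R1810A libraries. Deposited lengths also differ from the annotated exon unions in ZFAS1 (1097 against 2243 bases), SNHG6 (2847 against 1247), SNHG5, SNHG12 and SNHG16. The order per length depends on these deposited lengths.

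Together the 8 hosts took 0.0641% and 0.0678% of all gene counts in WT and 0.0833% and 0.0853% in R1810A. GAS5 made up 20.1% and 23.0% of these host reads in WT and 26.3% and 28.1% in R1810A. GAS5 was the host with most reads in every library except WT replicate 1, where ZFAS1 had 331 against 300. The rank by reads differs from the rank per length because ZFAS1 has a deposited length of 1097 bases.

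Among the snoRNAs inside the hosts, SNORD12 rose in R1810A, and SNORD99 had more reads in both R1810A libraries than in either WT library. Neither of their hosts passed the test. The summed C/D snoRNAs of ZFAS1 were 3.67-fold higher (adjusted p = 0.0014) and SNORD99 5.51-fold higher (adjusted p = 0.012). SNORA73B was at 2.02-fold and missed the threshold (adjusted p = 0.061). These snoRNA classes were known from earlier results of these data to be higher, so the calls are no independent evidence. Of the 6 snoRNAs, 3 had enough reads to be tested, and SNORD99 only through its R1810A libraries, so its adjusted p gives no support.

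**Figure D3:**
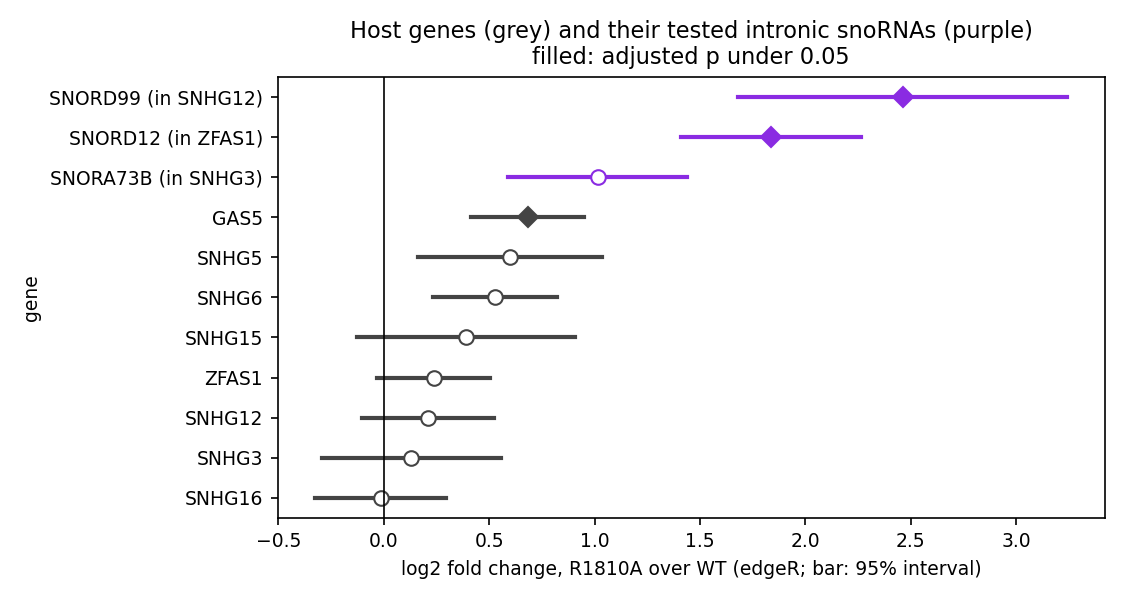
Log2 fold change of R1810A over WT (horizontal axis) with its 95% interval for the 8 hosts in grey and the 3 tested snoRNAs in purple, filled where the adjusted p is under 0.05. The intervals of SNORD99 (1.68 to 3.24) and SNORD12 (1.41 to 2.27) lie wholly above those of their hosts SNHG12 and ZFAS1. SNORD99 passed the filter on low counts only through its R1810A libraries, so its interval gives no support.

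SNORD12 had 37 and 55 reads in WT against 117 and 142 in R1810A, or 16.1 and 18.2 CPM against 55.7 and 67.8 CPM. The lower R1810A library was 3.06 times above the higher WT library, and the log2 fold change was 1.84 (SE 0.19, adjusted p = 0.0016). It lost the call without WT replicate 2 (log2 fold change 1.93, adjusted p = 0.060). Its neighbours in ZFAS1 had few reads, 0 and 2 in WT and 8 and 4 in R1810A for SNORD12C, and 1 and 2 against 5 and 4 for SNORD12B. Both were below the filter on low counts and were not tested singly. The 3 sequences above hold matches to both boxes and share the run cagatcgac, and SNORD12 held 351 of the reads and SNORD12B and SNORD12C 12 and 14. SNORD12 also lies wholly inside a GENCODE exon of ZFAS1, while SNORD12B and SNORD12C do not. If all snoRNA reads had been counted in ZFAS1 too, the host less those reads would be at a log2 fold change of -0.35 (adjusted p = 0.601).

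SNORD99, which guides a methylation of 28S ribosomal RNA, had 11 and 8 reads in WT against 38 and 46 in R1810A. These were 4.78 and 2.64 CPM against 18.1 and 21.96 CPM, and the log2 fold change was 2.46 (SE 0.35, adjusted p = 0.012). It passed the filter on low counts through its R1810A libraries. The low WT counts make the size uncertain. The log2 fold change was 2.05 without WT replicate 2, where the call was lost (adjusted p = 0.172), and 2.90 without WT replicate 1. By annotation SNORD99 lies outside the exons of SNHG12. Had its reads been counted in the host all the same, SNHG12 less those reads would be at a log2 fold change of -0.12 (adjusted p = 0.865).

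SNORA73B had 1745 and 1749 reads in WT against 3453 and 2208 in R1810A, at 759 and 578 CPM against 1643 and 1054 CPM. The groups did not overlap, and R1810A replicate 1 was 1.56 times above replicate 2. Its log2 fold change of 1.01 (SE 0.19, adjusted p = 0.061) became 0.66 when R1810A replicate 1 was left out and 1.30 when replicate 2 was. Of 14 alternatives, 10 left it short of the threshold, among them limma-voom (adjusted p = 0.073) and robust edgeR (0.268). It passed with no filter on low counts (adjusted p = 0.00018) and with the replicate block (0.00041). The other passes came without WT replicate 1 (log2 fold change 1.22) or without R1810A replicate 2, fits that leave 1 library in a group. DESeq2 gave an adjusted p of 0.647. In every library the reads of SNORA73B outnumbered those of SNHG3, so they cannot all have been counted there. Per length the gap was wider: SNORA73B had 2088 and 1586 RPKM in WT and 4213 and 2622 in R1810A, and SNHG3 had 9.43 and 14.9 against 13.5 and 11.3. The second SNHG3 snoRNA, SNORA73A, had no matched row, and all its bases lie inside the exon union of SNHG3, whose length of 4088 bases equals the deposited one.

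SNORD1B in SNHG16 had 1 and 2 reads in WT against 0 and 0 in R1810A, too few for a comparison. SNORD1A and SNORD1C, the other snoRNAs of that host, had no matched row, and neither did the snoRNAs of SNHG5, SNHG6 and SNHG15. All bases of these unmatched snoRNAs, among them SNORA9 in SNHG15, lie inside annotated exons of their hosts. The deposited lengths of these hosts differ from the annotated ones, so whether the host counts hold reads of these snoRNAs is not known.

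The ratio of snoRNA reads to host reads within a library needs no scaling between libraries. For SNHG12 the log2 of SNORD99 over host reads was -3.72 and -4.60 in WT and -2.02 and -1.98 in R1810A, a difference of 2.16. For ZFAS1 the log2 ratio of its 3 summed snoRNAs was -3.09 and -2.65 in WT and -1.38 and -1.09 in R1810A, a difference of 1.63. For both hosts the WT and R1810A libraries did not overlap, and the difference was larger than the SD in either group (0.63 and 0.03 for SNHG12, 0.31 and 0.20 for ZFAS1). Each SD rests on 2 libraries, and SNORD99 passed the filter on low counts only through its R1810A libraries. The comparison with the SD is therefore no evidence of a difference. SNORA73B also lies within the span of RCC1, a listed protein-coding host on the same strand, so SNHG3 may not be its only source. RCC1 had 602 and 946 reads in WT against 518 and 580 in R1810A, and no ratio to it was taken. For SNHG3 the ratio was above 1 in every library, with log2 values of 3.46 and 2.41 in WT and 3.96 and 3.52 in R1810A. Its difference of 0.81 was little larger than the SD of 0.74 in WT, and it was 0.28 without WT replicate 2. In each of the 3 the two-sided exact permutation p was 0.333, the smallest that 2 against 2 libraries allow.

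**Figure D4:**
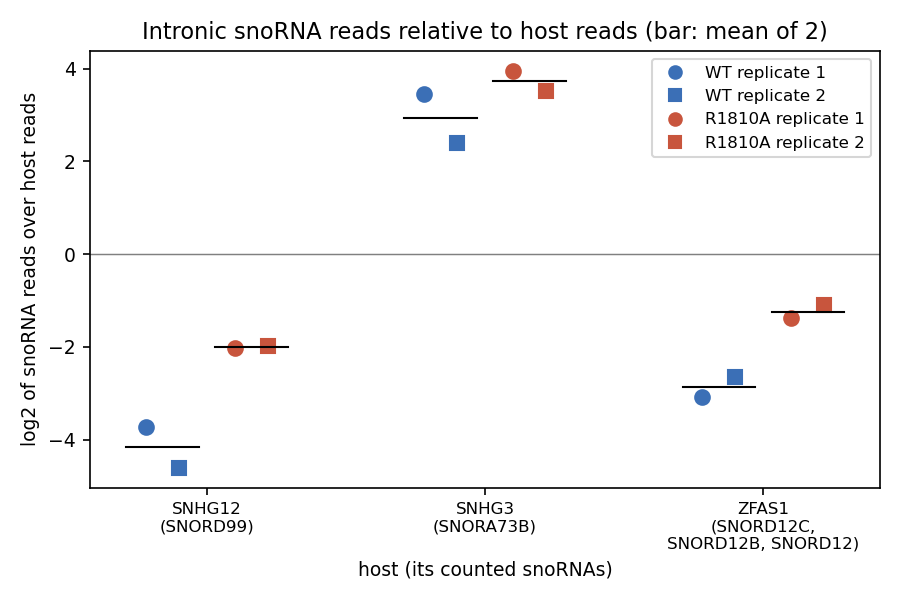
Log2 of snoRNA reads over host reads (1 read added to each, vertical axis) in each library for SNHG12, SNHG3 and ZFAS1, with circles for replicate 1, squares for replicate 2 and bars at the mean of 2 libraries. R1810A libraries lie above WT libraries in all 3 hosts, by means of 2.16, 0.81 and 1.63, and the WT pair of SNHG3 is the widest.

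Other snoRNA hosts were read from lists. Of 20 further noncoding hosts, 10 were tested and 0 passed with edgeR, against 0.347% of all genes called higher and 0.00937% lower. At that share, no call is to be looked for among 10 genes. Their median log2 fold change was 0.04, with a range from -0.29 to 0.42. DANCR, which carries snoRNAs and is known for holding back differentiation, stood lowest at 253 and 278 CPM in WT and 225 and 210 CPM in R1810A (log2 fold change -0.29, unadjusted p = 0.025, adjusted p = 0.544). SNHG7 stood at 0.33 (SE 0.22). Of the 10, 0 were higher and 1 was lower at an unadjusted p under 0.05, against 4.94% and 3.06% of all genes. There were 7 fold changes above 0, against 49.4% of all genes.

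Of 50 listed protein-coding hosts, 47 were tested and 0 passed with edgeR, against 0.347% of all genes called higher and 0.00937% lower. Unadjusted p values under 0.05 went to 8 higher and 1 lower of these 47, against 4.94% and 3.06% of all genes. The median was 0.07, and the R1810A libraries both exceeded the higher WT library in 18 of 47, against 19.8% of all genes. EIF3A, the largest subunit of the initiation factor eIF3, had 281 and 337 reads in WT against 358 and 412 in R1810A (0.66 on the log2 scale, SE 0.12, adjusted p = 0.061). EIF4A2, an RNA helicase of translation initiation, stood at 0.66 (SE 0.14, adjusted p = 0.087). Both values were close to that of GAS5, and each missed the threshold that GAS5 passed.

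**Figure D5:**
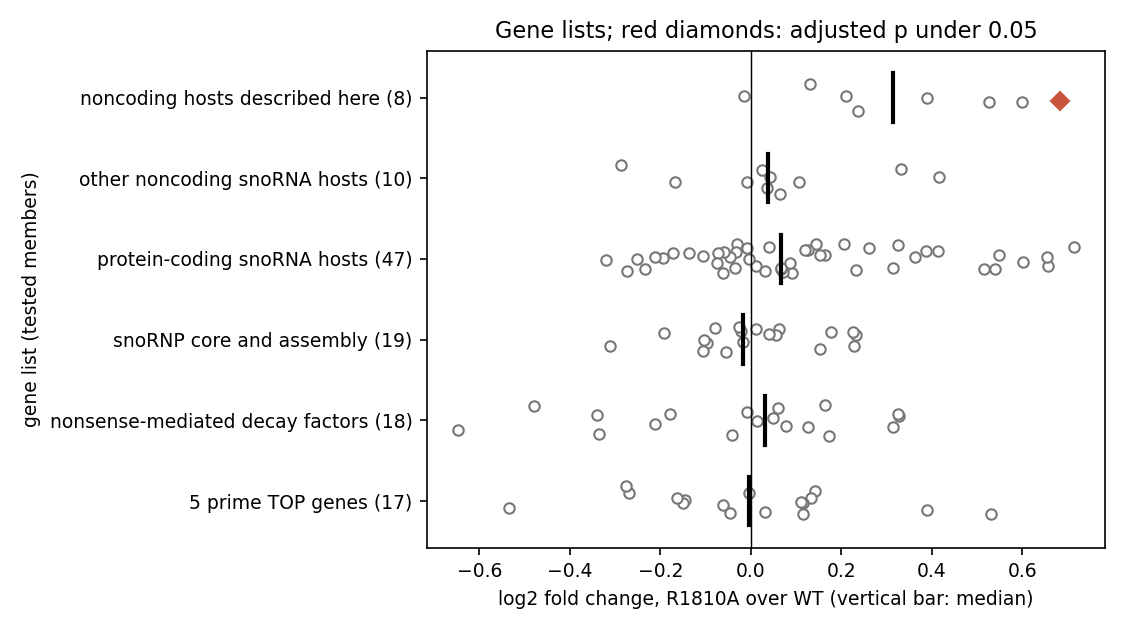
Log2 fold change of R1810A over WT (horizontal axis) for each tested gene of 6 lists (the 8 hosts, other noncoding hosts, protein-coding hosts, snoRNP proteins, nonsense-mediated decay factors and genes with an oligopyrimidine tract), with a vertical bar at the list median and red diamonds where the adjusted p is under 0.05. GAS5 is the only called gene in these 6 lists, against 0.347% of all genes called higher and 0.00937% lower. The list medians run from 0.31 for the 8 hosts to -0.02 for snoRNP proteins.

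Genes that act on the hosts or on their products had no called member with edgeR. Over all genes the shares called were 0.347% higher and 0.00937% lower, so lists of this size would rarely hold a call. The snoRNP core and assembly proteins had a median of -0.02 over 19 tested genes, with RUVBL1, an ATPase of snoRNP assembly, at -0.31 (SE 0.11) and DKC1, the pseudouridine synthase, at 0.23 (SE 0.12). Unadjusted p values under 0.05 went to 0 higher and 1 lower of the 19, against 4.94% and 3.06% of all genes. The nonsense-mediated decay factors had a median of 0.03 over 18 genes, with RNPS1, a splicing-linked activator of this decay, at -0.65 (SE 0.27), and 2 lower and 0 higher genes of 18 at that mark. Protein-coding transcripts known as targets of this decay had a median of -0.06 over 14 genes, with ATF4 at -0.45 (SE 0.16), the 1 lower gene, and SRSF3 at 0.21 (SE 0.12), and 0 higher.

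Further genes with a 5′ terminal oligopyrimidine tract, mostly of translation factors, had a median of 0.00 over 17 genes. VIM, which codes for the filament protein vimentin, stood at 0.53 (SE 0.19) and the initiation factor gene EIF4B at -0.28 (SE 0.12). These were the 1 higher and 1 lower gene at an unadjusted p under 0.05, a mark reached by 4.94% and 3.06% of all genes. Regulators of their translation through mTOR had a median of 0.03 over 12 genes, with RPS6KB1 at 0.48 (SE 0.21) and MLST8 at -0.32 (SE 0.14), again 1 and 1 of 12 against 4.94% and 3.06% of all genes. The glucocorticoid receptor, to which GAS5 RNA is known to bind, and its targets had a median of 0.04 over 8 genes. Its gene NR3C1 stood at 0.12 (SE 0.12), BIRC2 at -0.13 (SE 0.14), and 0 genes were at that mark in either direction.

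Over the 4 libraries, SF3B2 and COL6A3 had the profiles nearest to GAS5 among 4893 genes outside the hosts with a mean of at least 50 CPM. The measure was the Euclidean distance between centred log2 CPM values, which 4 values can make small by chance. SF3B2, a splicing factor subunit, was nearest (distance 0.11), with 40.0 and 46.2 CPM in WT and 70.9 and 68.7 CPM in R1810A. COL6A3, a collagen chain (distance 0.13), had 63.5 and 66.7 CPM against 101 and 104 CPM. Neither passed (adjusted p = 0.116 and 0.069).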

How the data were processed

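Total RNA was depleted of ribosomal RNA (RiboMinus) and sequenced on an Illumina GAII, per the labels' protocols. The submitters' processing notes name Bowtie and the hg19 build. The counter, annotation release, strand use and handling of multiply matching reads were not given in the sources used here. Per the file headers, values are raw read counts for each Ensembl gene. The deposited RPKM values are those counts relative to deposited length and total reads, and were used only to rank levels. Deposited gene lengths and total read numbers, per the file headers, are plain numbers.

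R1810A was compared with WT by edgeR 4.0.16 in R 4.3.3 (filterByExpr, TMM, glmQLFit and glmQLFTest, group only, Benjamini-Hochberg over 10674 genes, threshold 0.05). CPM used full library sums with TMM factors. The SE is the log2 fold change over the square root of F, and intervals use it at 95%. snoRNAs of a host were also summed, and ratios to the host were tested with an exact permutation test. Alternatives were DESeq2 1.42.0, limma-voom (limma 3.58.1) and changes of scaling, filter, block and libraries. The fit was also run on simulated data with the same dispersion for every gene. Changes were placed only in genes with many reads, and were larger than that of GAS5. That run therefore does not bear on the GAS5 call or on snoRNAs with few reads. Libraries of a group differed beyond sampling noise (chi-square per degree of freedom 4.03 and 2.13).

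Positions come from GENCODE 29 and RefSeq on GRCh38. The hosts, lists and rule for named genes were chosen with earlier results of these data known. The rule takes all hosts, their snoRNAs with at least 20 reads, the genes of each list past the threshold or else the 2 of smallest p, and the 3 nearest to GAS5. A few genes it takes are left unreported. SNORD12B, SNORD12C, SNORD1B, ZBTB37, RCC1, CSF1R and CD14 were named after their values were seen.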

Additional observations from a re-analysis of the deposited data

How the results depend on the processing

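Of the hosts, 0 were called higher with limma-voom, with deposited total reads as library size, or with small RNA genes left out of scaling and testing (chosen after seeing the data), against 1 as reported, and from 0 to 1 with a library left out. No host was called lower under any of the 15 alternatives run. With deposited total reads the median over all genes shifted by -0.12, and relative to that median GAS5 stood at 0.69. The log2 fold change of SNHG3 was -0.15 without WT replicate 1 and ran from there to 0.51 with a library left out. That of SNHG16 ran from -0.17 to 0.14, with 0.14 when WT replicate 1 was left out and 0.04 when R1810A replicate 2 was, and those of SNHG12 and ZFAS1 were -0.12 and -0.35 with their snoRNA reads subtracted. Over all genes, 37 higher and 1 lower became 24 higher with limma-voom, 78 and 7 with no filter, 73 and 4 with the replicate block, 2 lower with DESeq2, 4 lower with robust edgeR and 5 lower with total reads. With a library left out, they ranged from 2 to 113 higher and from 0 to 40 lower; 2 and 0 came without WT replicate 2, and 113 and 40 without WT replicate 1. Summed snoRNAs called higher ranged from 1 to 3 with a library left out, and the ZFAS1 ratio difference was 2.22 with snoRNA reads subtracted from the host. The cause of these changes was not tested. The subtraction gave no value for SNHG3, whose snoRNA reads exceed its own. Where a library was left out, the lone one of its group is assumed to vary like the other group. The replicate numbers share nothing in the labels but the number: deviations of same-numbered libraries had a correlation of -0.04 across genes. With the replicate block GAS5 kept its call (adjusted p = 0.0076). Hosts had from 47 to 498 reads per library, and the SE of their log2 fold changes ran from 0.12 in GAS5 to 0.24 in SNHG15, the host with fewest reads.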
